A study of Homo sapiens with 12 samples.

Results

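The genes described here serve protein folding in the endoplasmic reticulum (ER) and ER-associated degradation (ERAD). They are 32 named genes of the 62475 gene identifiers counted, matched by symbol through the identifier without its version. They comprise 6 stress sensors and transcription factors, 8 genes of the BiP chaperone machine, 7 lectin chaperones and disulfide isomerases, 2 subunits of the translocation channel and 9 ERAD genes. Of these, 31 had enough counts to be tested. DERL3, a member of the Derlin family, was left out because it had 1 count in all 12 libraries together, in a WT library with H89.

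RNA sequencing was carried out on HepG2 cells, an established human liver cancer line, in 4 groups of 3 biological replicates. WT cells carried wild-type HDAC1, a class I histone deacetylase, and S434A cells carried HDAC1_S434A, in which a serine is replaced by alanine. Each genotype was measured without H89 and with H89, which inhibits protein kinase A (PKA). The dose and duration of H89, the way the mutant cells were made, whether they are 1 clone and whether they keep endogenous HDAC1 are not stated in the sources read. The gene counts carry no information on the mutated base, so the genotype labels were not checked. Total counts per library were 17562754 to 37187794.

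Secreted and membrane proteins enter the ER through the Sec61 channel and are folded there by BiP (HSPA5) with its co-chaperones, by lectin chaperones that bind sugar chains, and by disulfide isomerases. When unfolded proteins accumulate, the sensors IRE1, PERK and ATF6 signal to the nucleus in the unfolded protein response, and chaperone and ERAD genes are transcribed through factors such as XBP1 and cleaved ATF6. Proteins that fail to fold are recognised, passed back through the membrane by a complex built around the ligase HRD1, extracted by VCP and degraded by the proteasome. Hepatocytes carry a large secretory load, which includes albumin and the apolipoproteins.

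Many promoters of these genes hold an ER stress response element (ERSE), the site through which ATF6 and XBP1 act together with the CCAAT-binding factor NF-Y. The ERSE was searched as CCAAT, 9 bases of any kind and CCACG. The ERSE-II was searched as ATTGG, 1 base of any kind and CCACG. Both strands of RefSeq promoter windows (GRCh38.p14) of 250 bases before and 50 bases after a start were searched. A window was found for 29 of the 32 genes. An ERSE was present in 7 of the 29 (24.1%), against 25 of 27305 genes with a window (0.0916%). An ERSE-II was present in 3 of the 29 (10.3%), against 19 of 27305 (0.0696%). The shorter core ACGTG, which also arises wherever CCACG is followed by T on the same strand, was in 15 of the 29 (51.7%) and in 24.9% of all genes. These genes include those in which the elements were first described, so the high share describes the list and is no measurement of these cells.

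The 5 windows below were chosen after the values were seen, because genes with the same element moved differently in these cells. HSPA5 and HYOU1 rose with H89 in WT cells, and SDF2L1 and CRELD2 fell. HSP90B1 did not pass the test, although its log2 value of 0.52 exceeded the 0.35 of HSPA5 and its libraries did not overlap. It passed with limma-voom with a weight per group (adjusted p = 0.00579), so it is not counted as moving differently. Each window shown is the 250 bases before the start, written 5′ to 3′ on the strand of the gene, with the ERSE or ERSE-II in capitals. Where an element lies on the opposite strand, the capitals begin with CGTGG.
HSPA5, chr9:125241344-125241593, minus strand: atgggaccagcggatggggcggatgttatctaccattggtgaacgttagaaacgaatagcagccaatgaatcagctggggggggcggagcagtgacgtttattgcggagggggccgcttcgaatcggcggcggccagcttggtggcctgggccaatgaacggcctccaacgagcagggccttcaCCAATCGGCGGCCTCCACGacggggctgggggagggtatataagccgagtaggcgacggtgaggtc
HSP90B1, chr12:103930160-103930409, plus strand: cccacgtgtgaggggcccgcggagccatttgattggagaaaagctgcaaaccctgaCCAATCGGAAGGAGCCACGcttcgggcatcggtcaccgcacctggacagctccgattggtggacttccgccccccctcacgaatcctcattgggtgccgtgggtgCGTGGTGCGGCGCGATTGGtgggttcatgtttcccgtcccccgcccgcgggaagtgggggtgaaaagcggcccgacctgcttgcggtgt
HYOU1, chr11:119057206-119057455, minus strand: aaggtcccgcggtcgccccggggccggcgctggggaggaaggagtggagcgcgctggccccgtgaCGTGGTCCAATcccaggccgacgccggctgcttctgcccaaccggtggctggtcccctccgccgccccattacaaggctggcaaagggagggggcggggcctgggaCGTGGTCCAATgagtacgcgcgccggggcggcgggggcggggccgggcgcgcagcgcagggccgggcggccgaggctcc
SDF2L1, chr22:21642052-21642301, plus strand: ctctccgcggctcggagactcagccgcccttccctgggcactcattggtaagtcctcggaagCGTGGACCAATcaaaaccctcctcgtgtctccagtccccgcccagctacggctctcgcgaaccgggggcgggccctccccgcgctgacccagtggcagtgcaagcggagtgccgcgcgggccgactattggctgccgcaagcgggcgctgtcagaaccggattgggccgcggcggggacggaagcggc
CRELD2, chr22:49918384-49918633, plus strand: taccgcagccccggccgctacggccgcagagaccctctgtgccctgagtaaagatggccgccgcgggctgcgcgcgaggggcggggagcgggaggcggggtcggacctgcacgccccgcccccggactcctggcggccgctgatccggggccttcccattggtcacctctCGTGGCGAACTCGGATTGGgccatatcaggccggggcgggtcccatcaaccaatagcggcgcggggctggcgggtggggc
The HSP90B1 window holds 2 ERSE and the HYOU1 window 2 ERSE-II, and the other windows shown hold 1 element each. The other 5 genes with an element are given by the element alone, in its own orientation with the defined bases in capitals.
XBP1: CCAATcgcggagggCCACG
CALR: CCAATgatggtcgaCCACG
CANX: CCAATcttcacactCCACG
PDIA6: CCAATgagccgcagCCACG
HERPUD1: ATTGGgCCACG
Of these 10 genes, 3 rose (HSPA5, HYOU1 and CANX), 5 fell and 2 did not pass with H89 in WT cells. Between the genotypes without H89, 3 rose in S434A (HSPA5, HYOU1 and HERPUD1), 3 fell and 4 did not pass. A match of letters is not a measurement of binding, and no binding data were used.

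The make-up of the libraries varied with the groups, and its part in the results was not tested except where stated. The share of counts on mRNAs encoded in the mitochondrial genome was 1.48 to 1.51% in WT, 4.91 to 6.26% in H89-treated WT, 3.16 to 7.02% in S434A and 5.57 to 5.94% in S434A with H89. The share on genes of ribosomal proteins was 19.4 to 20% in WT, 7.37 to 7.77% in H89-treated WT, 9.51 to 11.5% in S434A and 7.93 to 7.94% in S434A with H89. The 3 S434A libraries without H89 stood apart from each other, with a biological coefficient of variation of 0.35 against 0.019 in WT, 0.0732 in WT with H89 and 0.0546 in S434A with H89. Across genes, the level in these 3 libraries, set against the average library, was higher at higher GC content (Spearman rho 0.824, 0.716 and 0.128 in replicates 1 to 3). In the other 9 libraries rho was below 0. The same correlation with gene length was -0.427 to -0.415 in WT and 0.436 to 0.458 in WT with H89. It was -0.192 to -0.0789 in S434A and 0.424 to 0.442 in S434A with H89. WT without H89 and the groups with H89 thus stood at opposite ends along length. The summed level of 8 hepatocyte markers was 72264 to 72803 CPM (counts scaled to library size with TMM factors) in WT, 43637 to 48325 in H89-treated WT, 33378 to 54024 in S434A and 44071 to 45077 in S434A with H89. Of 5 fibroblast and 6 blood and endothelial markers, COL1A2, DCN, PTPRC and HBB were at 0 in every library and PECAM1 was not matched. PDGFRB made up nearly all of the fibroblast sum of 17.7 to 39.6 CPM, which was highest in S434A without H89, and the blood and endothelial sum was 2.63 to 8.41 CPM.

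Together the 32 genes took 0.747 to 0.755% of all counts in WT, 0.916 to 0.946% in H89-treated WT, 0.976 to 1.073% in S434A and 0.896 to 0.920% in S434A with H89. The 3 WT libraries were below the other 9. Levels of different genes were compared per kilobase of exon. In WT cells CALR was highest at 493 ± 4.44 CPM per kilobase (SD, n = 3), followed by P4HB at 338.5 ± 4.59, PDIA4 at 271 ± 0.702, PDIA6 at 199.98 ± 1.60 and HSPA5 at 173 ± 2.14. The spreads of these neighbours did not overlap. At the low end of the genes tested were the PERK gene EIF2AK3 at 1.18 ± 0.056, the IRE1 gene ERN1 at 1.48 ± 0.117 and DNAJC3 at 2.00 ± 0.093 CPM per kilobase.

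**Figure D1:**
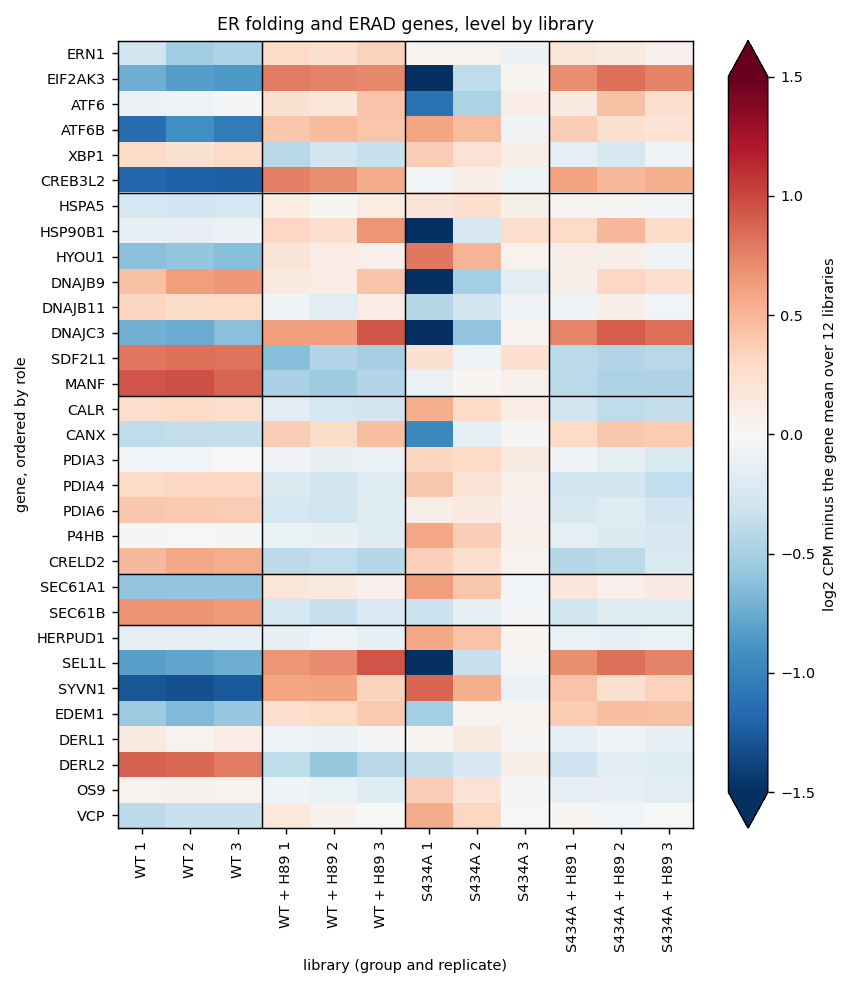
Level of the 31 genes tested in the 12 libraries, as log2 CPM minus the mean of each gene over the libraries. Columns are libraries by group and replicate, rows are genes ordered by role and divided by lines, and colours are limited to 1.5 either way. WT libraries stand apart from the H89-treated libraries of both genotypes, and replicate 1 of S434A without H89 is low for HSP90B1, SEL1L, DNAJC3, EIF2AK3 and DNAJB9.

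H89 in WT cells changed most of these genes, in both directions. The HRD1 gene SYVN1, the transcription factor genes CREB3L2 and ATF6B, EIF2AK3, SEL1L and DNAJC3 rose by over 2-fold, and MANF, SDF2L1 and DERL2 fell by over 2-fold. A gene is said to rise or fall where the edgeR quasi-likelihood test gave a Benjamini-Hochberg adjusted p under 0.05 over the 14435 genes tested, at any fold. By this test 13 of 31 rose and 11 fell, against 38.8% of all genes tested that rose and 30.9% that fell. With the 2-fold limit that the series design names, 9 of 31 passed, against 38% of all genes. The counts in each direction were near the shares of all genes. Limma-voom with a weight per group, explained below, called 15 higher and 14 lower, against 6805 and 5060 of the 14435 genes. The libraries of the 2 groups did not overlap for 30 of 31, against 83.1% of all genes. After removal of the trends that each library showed along GC content and length, 12 rose and 13 fell (38.6 and 35.3% of all genes), and 22 had the same call in both fits. RLE factors moved the median log2 change of all genes from 0.20 to 0.05. Leaving out a library of neither group can shift the scaling in the same way. Without replicate 1 of S434A with H89, VCP went from 0.43 to 0.28, HSPA5 from 0.35 to 0.20 and PDIA3 from -0.06 to -0.22. Calls gained or lost below where values moved by this shared shift are no trait of single genes. In a bulk library, a change in which cells are present and a change in RNA per cell cannot be told apart.

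S434A against WT without H89 showed higher SYVN1, ATF6B, CREB3L2 and HYOU1 and lower DNAJB9 and DERL2, all by over 2-fold. In all, 12 of 31 rose and 8 fell, against 29 and 29.3% of all genes tested. The 6 past 2-fold compare with 22.9% of all genes. The libraries did not overlap for 20 of 31, against 62.7% of all genes. Because the S434A libraries without H89 varied far more than the others, limma-voom with a weight per group was run beside edgeR. It called 11 higher and 7 lower, against 3159 and 3169 of the 14435 genes. By limma-voom ERN1 (adjusted p = 0.0532) and CRELD2 (adjusted p = 0.0681) lost their calls. With the GC and length trends removed 13 rose and 8 fell (30.4 and 29.9% of all genes), 15 had the same call, and P4HB went the opposite way. The count of 20 was 25 without replicate 1 of S434A, 19 without replicate 2 and 22 without replicate 3. CANX, DNAJC3, EIF2AK3 and SEL1L passed as higher, and PDIA4 as lower, without replicate 1. ATF6 passed as lower and OS9 as higher without replicate 3.

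H89 in S434A cells lowered more of these genes than it raised. All 6 disulfide isomerase and lectin genes other than CANX fell, together with MANF, SDF2L1, HYOU1, XBP1 and HERPUD1, while EIF2AK3, DNAJC3 and SEL1L rose by over 2-fold. In all, 7 of 31 rose and 15 fell, against 29.3 and 22.7% of all genes tested. The 3 past 2-fold compare with 17.6% of all genes. The libraries did not overlap for 23 of 31, against 56.4% of all genes. The split among all genes depended on the scaling, since 56.3% of called genes rose with TMM factors and 45.5% with RLE factors. Limma-voom with a weight per group called 9 higher and 12 lower, against 3089 and 1986 of the 14435 genes. With trends removed 6 rose and 16 fell (20.8 and 22.9% of all genes), 17 with the same call. ATF6 then went the opposite way. Fitted on the 6 S434A libraries alone, 1 rose and 9 fell, against 8.49 and 11.4% of all genes tested there. EIF2AK3, DNAJC3 and SEL1L then lost their calls. The count of 22 was 28 without replicate 3 of S434A without H89 and otherwise 19 to 22. Here too the scaling moved with a library of neither group. Without replicate 1 of WT with H89, DERL1 went from -0.18 to -0.31, SEC61A1 from -0.24 to -0.36 and ATF6 from 0.69 to 0.57.

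With H89 present, S434A and WT were not separated by the test for any of these genes. None rose and none fell (0% of all genes in each direction), and 1 of the 31, XBP1, had an unadjusted p under 0.05. Among all genes edgeR called 0, DESeq2 2 and limma-voom 3, and 589 had an unadjusted edgeR p under 0.05. The log2 differences of the 31 genes ran from -0.17 for SYVN1 to 0.24 for DERL2, with standard errors from 0.05 to 0.39. XBP1 was at 176, 194 and 188 CPM in WT with H89 and at 215, 200 and 225 CPM in S434A with H89, a log2 difference of 0.20 (SE 0.08, edgeR adjusted p = 1). The libraries did not overlap for 7 of 31, against 17.3% of all genes. That count was 17 without replicate 3 of WT with H89, where 38% of all genes did not overlap, and 13 without replicate 1 of S434A with H89, where 29.6% did not.

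The H89 effect differed between the genotypes for 18 of the 31 genes by the interaction term. It was more positive in S434A for 7 and more negative for 11, against 24% of all genes tested in each direction. The 5 that differed by over 2-fold compare with 24.2% of all genes. With trends removed the counts were 6 and 13 (24.9 and 25.1% of all genes), with 14 calls shared. EIF2AK3 (-0.76), DNAJC3 (-0.56), SEL1L (-0.59), CALR (-0.25) and OS9 (0.16) passed then and not on the counts as deposited. Limma-voom gave 7 and 11, against 3170 and 3081 of the 14435 genes, with DNAJB9 (1.56) in place of CRELD2. Left-out libraries gave 16 to 24, the highest without replicate 1 of S434A without H89. The interaction term equals S434A against WT with H89 minus S434A against WT without H89. The former stayed between -0.17 and 0.24, so the term largely repeated the latter with its sign turned. Examples are SYVN1 (-1.95 and 1.78) and MANF (0.98 and -0.93). The term is thus not a separate result. The comparisons share libraries. The WT libraries without H89 serve both S434A against WT and H89 in WT, and the S434A libraries without H89 serve both S434A against WT and H89 in S434A, so their values are given side by side and are not independent.

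**Figure D2:**
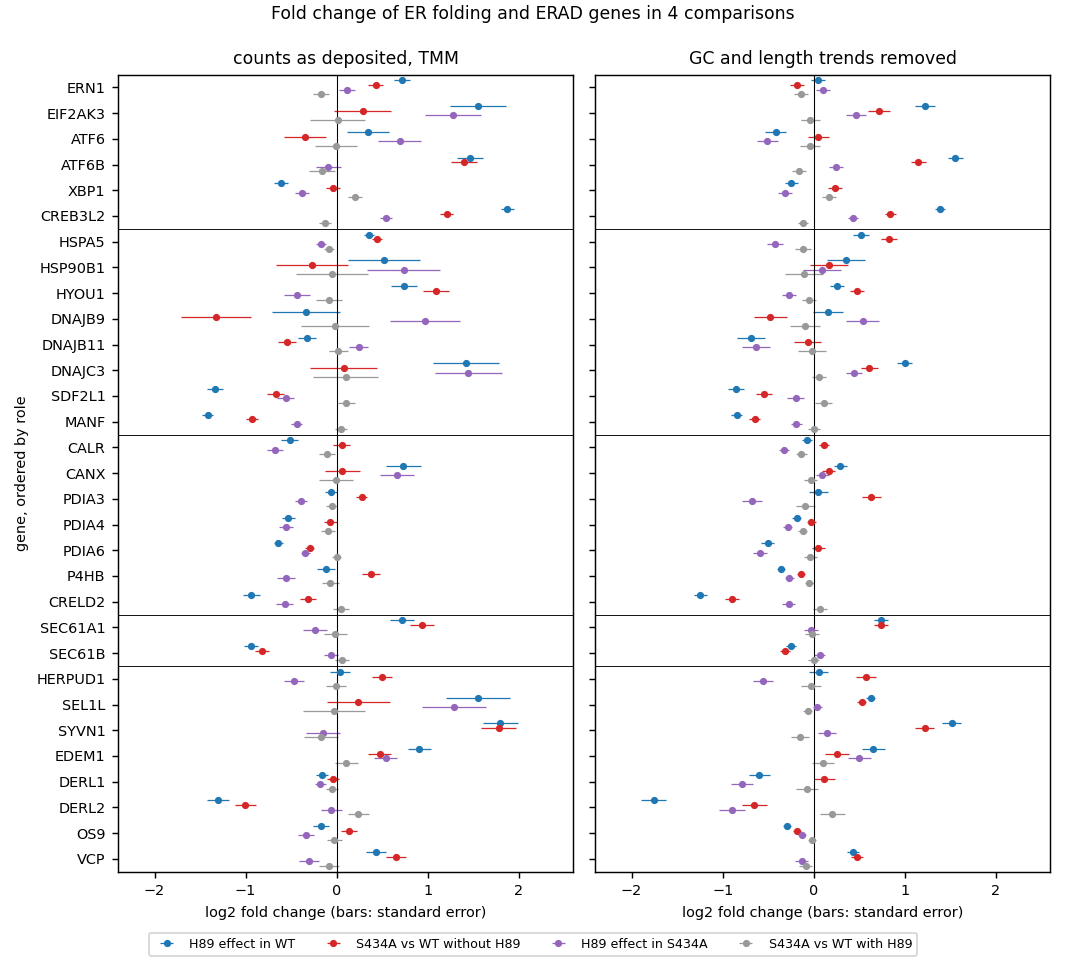
Log2 fold change with its standard error of 31 genes in 4 comparisons, ordered by role, from counts as deposited (left) and with GC and length trends removed (right). S434A against WT with H89 stays between -0.17 and 0.24 on the left, while SYVN1, CREB3L2 and ATF6B lie above 1 for H89 in WT and for S434A against WT without H89.

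Of the 6 sensors and transcription factors, 4 rose and 1 fell with H89 in WT, 3 rose and none fell in S434A against WT, and 3 rose and 1 fell with H89 in S434A. Over all genes tested the shares that rose and fell were 38.8 and 30.9%, 29 and 29.3%, and 29.3 and 22.7% in these comparisons. CREB3L2, an ER-membrane factor of the ATF6 type that is cleaved in the Golgi (hg19 chr7:137559725-137686832), was at 40.7, 39.5 and 39.3 CPM in WT. It was at 155, 148.5 and 135 CPM in WT with H89, at 89.1, 98.7 and 88.2 CPM in S434A, and at 139.5, 129 and 133 CPM in S434A with H89. S434A without H89 lay between WT and the H89-treated libraries without overlap. It rose by 1.87 on the log2 scale with H89 in WT (SE 0.07, edgeR adjusted p = 5.64e-09), by 1.21 in S434A against WT (SE 0.07, edgeR adjusted p = 4.59e-07) and by 0.54 with H89 in S434A (SE 0.07, edgeR adjusted p = 2.19e-04). With trends removed these values were 1.39, 0.84 and 0.43, each still past the test.

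ATF6B, the second ATF6 gene, whose product is held in the ER membrane like ATF6 (hg19 chr6:32083041-32096030), was at 21.3, 25.0 and 22.9 CPM in WT. It was at 62.2, 65.7 and 63.0 CPM in WT with H89, at 71.3, 65.3 and 45.5 CPM in S434A, and at 61.0, 55.5 and 54.2 CPM in S434A with H89. All 9 other libraries lay above the WT libraries. Its log2 change was 1.47 with H89 in WT (SE 0.14, edgeR adjusted p = 4.48e-06) and 1.40 in S434A against WT (SE 0.14, edgeR adjusted p = 1.24e-05). With H89 in S434A it was -0.09 (SE 0.14, edgeR adjusted p = 0.596), and the direction turned with the setting. It passed as higher with trends removed (0.24, edgeR adjusted p = 0.0239) and as lower without replicate 3 of S434A without H89 (-0.26, edgeR adjusted p = 0.0129). ATF6 itself, the main chaperone activator of the pair, was at 48.1, 49.3 and 50.01 CPM in WT and at 60.1, 58.2 and 69.0 CPM in WT with H89. It was at 23.6, 36.8 and 55.2 CPM in S434A and at 56.4, 69.3 and 61.3 CPM in S434A with H89. Its libraries without H89 in S434A spanned the WT level. The change with H89 in WT did not pass (0.35, SE 0.23, edgeR adjusted p = 0.203), although the libraries did not overlap. It passed as higher with limma-voom (0.34, adjusted p = 0.00206) and without replicate 1 of S434A without H89 (0.34, edgeR adjusted p = 0.0180), and as lower with trends removed (-0.42, edgeR adjusted p = 0.00519). With H89 in S434A it was 0.69 (SE 0.23, edgeR adjusted p = 0.0298), -0.51 with trends removed, and it lost the call without any 1 of 7 libraries, at 0.48 to 0.63. It passed at 0.43 without replicate 1 and at 1.05 without replicate 3 of S434A without H89. The direction for ATF6 with H89 thus turned with the treatment of GC content and length. Per kilobase, the ratio of ATF6B to ATF6 was 1.02 ± 0.073 in WT, 2.22 ± 0.236 in WT with H89, 4.06 ± 2.39 in S434A and 2.00 ± 0.312 in S434A with H89 (SD, n = 3), a pair chosen after its values were seen. GC and length trends were not removed from this ratio.

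EIF2AK3 encodes PERK, the kinase that phosphorylates the translation factor eIF2α (hg19 chr2:88856259-88926982). It was at 6.80, 6.36 and 6.21 CPM in WT and at 19.4, 18.98 and 18.6 CPM in WT with H89. It was at 3.39, 8.69 and 11.6 CPM in S434A and at 18.3, 20.04 and 19.01 CPM in S434A with H89. Both groups with H89 lay above all libraries without it. Its log2 change was 1.55 with H89 in WT (SE 0.31, edgeR adjusted p = 0.00109) and 1.28 with H89 in S434A (SE 0.31, edgeR adjusted p = 0.00733), or 1.22 and 0.46 with trends removed. S434A against WT did not pass at 0.29 (edgeR adjusted p = 0.46), and passed at 0.65 without replicate 1 of S434A and at 0.72 with trends removed (edgeR adjusted p = 1.79e-04). ERN1 encodes IRE1, the kinase and endonuclease that splices XBP1 mRNA. It was at 17.5, 15.02 and 15.6 CPM in WT, 26.4, 25.3 and 27.3 in H89-treated WT, 22.3, 22.3 and 20.2 in S434A and 24.3, 23.5 and 22.4 in S434A with H89. WT libraries without H89 were the lowest. Its rise of 0.72 with H89 in WT (SE 0.09, edgeR adjusted p = 2.60e-05) was 0.05 with trends removed (edgeR adjusted p = 0.555), and its rise of 0.43 in S434A against WT was -0.18 with trends removed (edgeR adjusted p = 0.0553).

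XBP1, whose spliced mRNA encodes an activator of ERAD and chaperone genes (hg19 chr22:29190543-29196585), was the one member of this role that fell with H89 in both genotypes. It was at 288, 276 and 288 CPM in WT and at 176, 194 and 188 CPM in WT with H89. It was at 305, 275 and 251 CPM in S434A and at 215, 200 and 225 CPM in S434A with H89. All libraries with H89 lay below all libraries without it. The log2 change was -0.61 in WT (SE 0.08, edgeR adjusted p = 3.30e-05) and -0.38 in S434A (SE 0.08, edgeR adjusted p = 0.00295), and these were -0.25 and -0.31 with trends removed, both past the test. In S434A against WT it was -0.04 (edgeR adjusted p = 0.716), and rose with trends removed (0.23, edgeR adjusted p = 0.0139). Counts per gene do not separate spliced from unspliced XBP1.

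Of the 8 genes of the BiP machine, 3 rose and 3 fell with H89 in WT, 2 rose and 4 fell in S434A against WT, and 1 rose and 4 fell with H89 in S434A. The shares over all genes were 38.8 and 30.9%, 29 and 29.3%, and 29.3 and 22.7%. HSPA5, the ATP-driven chaperone that also holds the sensors inactive (hg19 chr9:127997132-128003622), was at 685, 668 and 678 CPM in WT. It was at 883, 834 and 880 CPM in WT with H89, at 934, 970 and 864 CPM in S434A, and at 841, 822 and 793 CPM in S434A with H89. WT without H89 was lowest, and the S434A libraries without H89 lay above those with it. It rose by 0.35 with H89 in WT (SE 0.05, edgeR adjusted p = 1.51e-04), by 0.45 in S434A against WT (SE 0.05, edgeR adjusted p = 4.07e-05) and fell by 0.17 with H89 in S434A (SE 0.05, edgeR adjusted p = 0.0220). Limma-voom with a weight per group did not call the last of these (adjusted p = 0.0954). With trends removed the 3 values were 0.52, 0.83 and -0.43. The value for H89 in WT was 0.21 with RLE factors. It was 0.18 to 0.23 without any 1 library of WT with H89 or of S434A with H89, or without replicate 2 of S434A. The fall in S434A was 0.26 to 0.32 in size when the same libraries were left out. HYOU1, a large chaperone that exchanges nucleotide on BiP, was at 126, 131 and 125 CPM in WT and at 223.5, 211 and 205 CPM in WT with H89. It was at 337, 277 and 202 CPM in S434A and at 207, 207 and 189 CPM in S434A with H89. The WT libraries were below all others. Its log2 change was 0.74 with H89 in WT (SE 0.14, edgeR adjusted p = 7.72e-04) and 1.09 in S434A against WT (SE 0.14, edgeR adjusted p = 6.77e-05), or 0.25 and 0.47 with trends removed. It fell by 0.44 with H89 in S434A (SE 0.14, edgeR adjusted p = 0.0252), and by 0.25 without replicate 1 of S434A without H89, when it did not pass (edgeR adjusted p = 0.0525). With trends removed this fall was 0.27 in size (-0.27, edgeR adjusted p = 0.0108).

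MANF and SDF2L1 fell in each of these comparisons. MANF, a small secreted factor that stabilises BiP bound to its clients (hg19 chr3:51422722-51426828), was at 147, 149 and 140 CPM in WT and at 54.5, 52.5 and 56.1 CPM in WT with H89. It was at 70.9, 77.6 and 80.1 CPM in S434A and at 57.7, 55.4 and 55.3 CPM in S434A with H89. S434A lay between WT and the H89-treated groups without overlap. The log2 change was -1.42 with H89 in WT (SE 0.06, edgeR adjusted p = 1.17e-08), -0.93 in S434A against WT (SE 0.06, edgeR adjusted p = 7.76e-07) and -0.44 with H89 in S434A (SE 0.06, edgeR adjusted p = 4.10e-04). With trends removed these were -0.84, -0.65 and -0.19. SDF2L1, which keeps the J-domain protein DNAJB11 and its clients soluble (hg19 chr22:21996591-21998588), was at 52.3, 53.7 and 53.1 CPM in WT and at 19.4, 22.2 and 21.4 CPM in WT with H89. It was at 35.4, 28.8 and 35.6 CPM in S434A and at 22.9, 22.4 and 22.6 CPM in S434A with H89. Its group means had the same order as those of MANF. The log2 change was -1.34 with H89 in WT (SE 0.09, edgeR adjusted p = 2.76e-07) and -0.67 in S434A against WT (SE 0.09, edgeR adjusted p = 8.25e-05), or -0.85 and -0.54 with trends removed. Its fall of 0.56 with H89 in S434A did not pass with trends removed (-0.20, edgeR adjusted p = 0.0917).

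The J-domain co-chaperones, which deliver substrates to BiP and start its ATPase cycle, did not move together. DNAJC3, also an inhibitor of PERK, was at 10.98, 10.8 and 11.8 CPM in WT and at 27.8, 27.7 and 34.5 CPM in WT with H89. It was at 4.46, 12.01 and 18.8 CPM in S434A and at 30.1, 34.1 and 32.1 CPM in S434A with H89. It rose by 1.42 with H89 in WT (SE 0.36, edgeR adjusted p = 0.00505) and by 1.45 with H89 in S434A (SE 0.37, edgeR adjusted p = 0.00885), or 0.998 and 0.44 with trends removed. In S434A against WT it was 0.08 (edgeR adjusted p = 0.873), and rose with trends removed (0.61, edgeR adjusted p = 5.89e-05). DNAJB9, which helps BiP bind IRE1 and ERAD substrates, was at 15.8, 17.9 and 18.3 CPM in WT and at 12.8, 12.5 and 15.7 CPM in WT with H89. It was at 2.26, 8.14 and 10.3 CPM in S434A and at 12.3, 14.4 and 13.9 CPM in S434A with H89. S434A without H89 was the lowest group, and its replicate 1 the lowest library. The fall in S434A against WT was 1.32 in size (SE 0.38, edgeR adjusted p = 0.0124), and the change was -0.48 with trends removed (edgeR adjusted p = 0.0357). The H89 effect in S434A was 0.97 (edgeR adjusted p = 0.0554), and passed with limma-voom (1.22, adjusted p = 0.0332) and with trends removed (0.54, edgeR adjusted p = 0.0319). With H89 in WT it was -0.34 (edgeR adjusted p = 0.43), and passed with limma-voom (adjusted p = 0.0191). DNAJB11 fell by 0.33 with H89 in WT (edgeR adjusted p = 0.0141) and by 0.55 in S434A against WT (edgeR adjusted p = 7.71e-04), where it did not pass with trends removed (-0.07, edgeR adjusted p = 0.726). Its value with H89 in WT was -0.55 without replicate 3 of WT with H89 and -0.69 with trends removed. Its H89 effect in S434A was 0.24 (edgeR adjusted p = 0.0683), passed as higher without replicate 3 of S434A without H89 (0.35, edgeR adjusted p = 0.00528) and as lower with trends removed (-0.64, edgeR adjusted p = 0.00693). Of its exon bases in the table, 23.2% overlapped other genes.

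HSP90B1, the ER form of HSP90, did not pass the edgeR test on all 12 libraries in any comparison. It was at 508, 511 and 524 CPM in WT, at 686, 653 and 875 CPM in WT with H89, at 143, 469 and 668 CPM in S434A and at 681, 780 and 670 CPM in S434A with H89. All libraries with H89 were above WT without it, and of the S434A libraries without H89, replicates 1 and 2 lay below WT and replicate 3 lay among the libraries with H89. Its log2 change with H89 in WT was 0.52 (SE 0.40, edgeR adjusted p = 0.259). It passed at 0.52 without replicate 1 of S434A without H89 (edgeR adjusted p = 0.00132), a library of neither group, through which the spread of all groups was estimated, and with limma-voom with a weight per group (adjusted p = 0.00579). With H89 in S434A it was 0.73 (SE 0.40, edgeR adjusted p = 0.143). There it passed with limma-voom at 0.99 (adjusted p = 0.0491) and without replicate 3 of S434A without H89 at 1.21 (edgeR adjusted p = 0.0231), and was 0.09 with trends removed (edgeR adjusted p = 0.769).

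**Figure D3:**
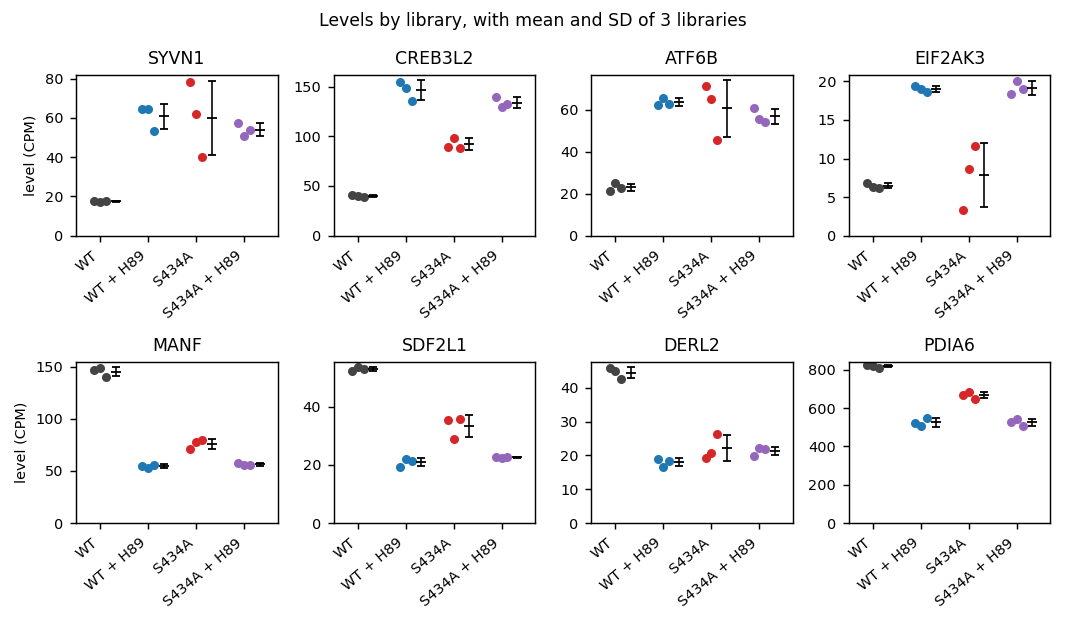
Levels in CPM of 8 genes in each library, coloured by group, with the mean and SD of 3 libraries beside them. The upper genes are lowest in WT without H89, except EIF2AK3, whose S434A libraries of 3.39 to 11.6 CPM span the WT level, and the lower genes are highest in WT without H89.

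Of the lectin chaperones and disulfide isomerases, 1 rose and 4 fell with H89 in WT, 2 rose and 2 fell in S434A against WT, and 1 rose and 6 fell with H89 in S434A. The shares over all genes were 38.8 and 30.9%, 29 and 29.3%, and 29.3 and 22.7%. CALR, the soluble lectin chaperone, was at 1333, 1353 and 1332 CPM in WT and at 987.5, 920.2 and 904 CPM in WT with H89. It was at 1621, 1353 and 1197 CPM in S434A and at 901, 848 and 863 CPM in S434A with H89. The libraries with H89 lay below all others. The log2 change was -0.51 with H89 in WT (SE 0.09, edgeR adjusted p = 4.66e-04), which did not pass with trends removed (-0.08, edgeR adjusted p = 0.244), and -0.68 with H89 in S434A (SE 0.09, edgeR adjusted p = 3.25e-04), or -0.32 with trends removed. CANX, its membrane-bound counterpart, was at 325, 329.9 and 329 CPM in WT, at 546, 512.5 and 576 in WT with H89, at 216, 384 and 427 in S434A and at 517, 558 and 550.3 in S434A with H89. It moved the other way from CALR with H89. Its log2 change was 0.73 in WT (SE 0.19, edgeR adjusted p = 0.00570), 0.54 without replicate 3 of WT with H89 (edgeR adjusted p = 0.0550), 0.29 with trends removed (edgeR adjusted p = 0.00220), and 0.66 in S434A (SE 0.19, edgeR adjusted p = 0.0157). The call in S434A was lost without replicate 1 of WT with H89 or any library of S434A with H89, at 0.51 to 0.57, was 0.42 without replicate 1 of S434A without H89, and was lost with trends removed (0.09, edgeR adjusted p = 0.313). Per kilobase, the ratio of CANX to CALR was 0.0956 ± 0.000773 in WT, 0.227 ± 0.0186 in WT with H89, 0.101 ± 0.0445 in S434A and 0.243 ± 0.0171 in S434A with H89 (SD, n = 3), a pair chosen after its values were seen. GC and length trends were not removed from this ratio.

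The disulfide isomerases, which form and rearrange disulfide bonds, mostly fell with H89. PDIA6, a partner of BiP, was at 825, 820.4 and 812 CPM in WT, at 520.3, 505 and 551 in WT with H89, at 667, 682.5 and 650.2 in S434A and at 526, 543 and 509 in S434A with H89. S434A without H89 lay between the others without overlap. Its log2 change was -0.64 with H89 in WT (SE 0.05, edgeR adjusted p = 7.96e-07), -0.34 with H89 in S434A (SE 0.05, edgeR adjusted p = 4.88e-04) and -0.30 in S434A against WT (SE 0.05, edgeR adjusted p = 3.92e-04). With trends removed the fall with H89 in S434A was -0.59, and the value for S434A against WT did not pass (0.05, edgeR adjusted p = 0.575). PDIA4 was at 893, 895 and 897 CPM in WT and at 629, 597 and 634 CPM in WT with H89. It fell by 0.53 with H89 in WT and by 0.56 with H89 in S434A (edgeR adjusted p = 7.73e-05 and 2.85e-04), and by 0.19 and 0.29 with trends removed. CRELD2, a secreted isomerase-like protein, fell by 0.94 with H89 in WT, by 0.57 with H89 in S434A and by 0.32 in S434A against WT (edgeR adjusted p = 4.53e-06, 8.22e-04 and 0.0107), and these values were -1.25, -0.27 and -0.90 with trends removed. It was at 42.8, 45.5 and 44.2 CPM in WT, 23.1, 23.6 and 22.6 in H89-treated WT, 38.9, 35.9 and 31.5 in S434A and 22.6, 22.9 and 26.1 in S434A with H89.

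P4HB, which is protein disulfide isomerase itself and a subunit of prolyl hydroxylase, and PDIA3, which works with the lectin chaperones, did not pass with H89 in WT at -0.11 and -0.06 (edgeR adjusted p = 0.324 and 0.40). Both rose in S434A against WT, by 0.37 and 0.27 (edgeR adjusted p = 0.00700 and 0.00301), and fell with H89 in S434A by 0.55 and 0.39 (edgeR adjusted p = 0.00151 and 8.54e-04). P4HB was at 1764, 1797 and 1751 CPM in WT and at 2671, 2322 and 1893 CPM in S434A, so the S434A libraries were all higher but far apart. With trends removed P4HB fell in S434A against WT (-0.14, edgeR adjusted p = 0.0155) while PDIA3 still rose (0.63, edgeR adjusted p = 1.80e-04). Their falls with H89 in S434A were then -0.27 and -0.68, and P4HB also fell with H89 in WT (-0.36, edgeR adjusted p = 7.12e-06). With H89 in WT, P4HB passed as lower without replicate 2 of S434A or any library of S434A with H89 (-0.27), and PDIA3 without these or any library of WT with H89 (-0.20 to -0.24). Exon bases overlapped other genes for 25.2% of PDIA6 and 18.9% of PDIA3, and the table also lists the pseudogenes PDIA3P1 and PDIA3P2, so these values carry the uncertainty of read assignment. The same holds for XBP1, HSPA5 and HSP90B1, of which pseudogenes are listed. Exon overlap was also 16.7% for HSP90B1, 14.3% for EIF2AK3, 13.5% for OS9 and 10.1% for P4HB. It was 9.92% for ATF6B and 8.84% for SYVN1, and 0% for CREB3L2, MANF and SEL1L among others.

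The 2 subunits of the translocation channel moved apart. SEC61A1, the pore-forming subunit (hg19 chr3:127770484-127790526), was at 172, 173 and 172 CPM in WT and at 293.5, 285 and 273 CPM in WT with H89. It was at 399, 342 and 251 CPM in S434A and at 290, 271.5 and 281 CPM in S434A with H89. SEC61B, a small tail-anchored subunit (hg19 chr9:101984346-101992897), was at 159, 159 and 156 CPM in WT and at 83.3, 78.4 and 85.3 CPM in WT with H89. It was at 79.6, 90.2 and 98.5 CPM in S434A and at 81.1, 88.3 and 88.0 CPM in S434A with H89. The WT libraries were lowest for SEC61A1 and highest for SEC61B. SEC61A1 rose by 0.72 with H89 in WT (SE 0.13, edgeR adjusted p = 4.63e-04) and by 0.94 in S434A against WT (SE 0.13, edgeR adjusted p = 9.22e-05), while SEC61B fell by 0.94 and 0.82 (SE 0.08 for both, edgeR adjusted p = 1.31e-06 and 7.82e-06). With trends removed SEC61A1 was at 0.74 and 0.74 and SEC61B at -0.25 and -0.31, all past the test. Neither passed with H89 in S434A (-0.24 and -0.06, edgeR adjusted p = 0.142 and 0.541), although SEC61A1 passed as lower at -0.36 to -0.40 without any 1 library of WT with H89 or replicate 3 of S434A without H89. Per kilobase, the ratio of SEC61A1 to SEC61B was 0.285 ± 0.00283 in WT, 0.900 ± 0.0588 in WT with H89, 0.987 ± 0.321 in S434A and 0.855 ± 0.0677 in S434A with H89 (SD, n = 3), a pair chosen after its values were seen. GC and length trends were not removed from this ratio.

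Of the 8 ERAD genes tested, 4 rose and 2 fell with H89 in WT, 4 rose and 1 fell in S434A against WT, and 2 rose and 4 fell with H89 in S434A. The shares over all genes were 38.8 and 30.9%, 29 and 29.3%, and 29.3 and 22.7%. SYVN1 encodes HRD1, the ubiquitin ligase at the centre of the complex (hg19 chr11:64889252-64902003). It was at 17.5, 17.1 and 17.8 CPM in WT, at 64.3, 64.6 and 53.6 in WT with H89, at 78.1, 61.8 and 40.3 in S434A and at 57.3, 50.6 and 54.0 in S434A with H89. All other libraries were above the WT libraries. The log2 change was 1.80 with H89 in WT (SE 0.19, edgeR adjusted p = 9.88e-06) and 1.78 in S434A against WT (SE 0.19, edgeR adjusted p = 1.92e-05), or 1.52 and 1.22 with trends removed. With H89 in S434A it was -0.15 (SE 0.19, edgeR adjusted p = 0.506), and it passed at -0.38 without replicate 3 of S434A without H89. SEL1L, the adaptor that pairs with HRD1, was at 26.7, 27.5 and 28.3 CPM in WT and at 74.4, 76.9 and 90.7 CPM in WT with H89. It was at 12.4, 37.2 and 47.6 CPM in S434A and at 76.1, 83.2 and 78.5 CPM in S434A with H89. The libraries with H89 were above all others. It rose by 1.55 with H89 in WT (SE 0.35, edgeR adjusted p = 0.00240), or 0.63 with trends removed, and by 1.29 with H89 in S434A (SE 0.35, edgeR adjusted p = 0.0118), which did not pass with trends removed (0.04, edgeR adjusted p = 0.577). S434A against WT was 0.24 (edgeR adjusted p = 0.586), 0.63 without replicate 1 of S434A and 0.53 with trends removed, and passed in the last 2.

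The Derlins, membrane proteins that form part of the exit channel, differed from each other. DERL2 (hg19 chr17:5374574-5390131) was at 45.8, 45.1 and 42.6 CPM in WT and at 18.96, 16.7 and 18.5 CPM in WT with H89. It was at 19.3, 20.7 and 26.4 CPM in S434A and at 19.8, 22.2 and 21.8 CPM in S434A with H89. WT without H89 was far above all others. It fell by 1.30 with H89 in WT (SE 0.12, edgeR adjusted p = 2.30e-06) and by 1.01 in S434A against WT (SE 0.12, edgeR adjusted p = 2.82e-05), or by 1.76 and 0.65 with trends removed. With H89 in S434A it was -0.06 (edgeR adjusted p = 0.694), and passed as lower with trends removed (-0.90, edgeR adjusted p = 3.52e-04). DERL1 was at 36.1 to 44.3 CPM over all 12 libraries. It fell by 0.16 with H89 in WT (edgeR adjusted p = 0.0406) and by 0.18 with H89 in S434A (edgeR adjusted p = 0.0387). The first was lost without any 1 WT library without H89 (-0.15 to -0.19) and was -0.30 to -0.33 without any 1 library of the groups with H89 or replicate 2 of S434A, and the second was lost with limma-voom with a weight per group (adjusted p = 0.249) and without any 1 WT library without H89 (-0.18), and was -0.29 to -0.33 without any 1 library of the groups with H89. With trends removed both were larger in size, at -0.60 and -0.79. DERL3 had 1 count, and 77% of its exon bases overlapped SMARCB1, and the part of this overlap in its low count was not tested.

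EDEM1, a mannosidase-like protein that marks glycoproteins for removal, was at 23.6, 21.8 and 23.2 CPM in WT, 41.0, 42.4 and 45.2 in H89-treated WT, 24.2, 35.4 and 35.6 in S434A and 44.9, 47.0 and 46.6 in S434A with H89. It rose by 0.91 with H89 in WT and by 0.54 with H89 in S434A (edgeR adjusted p = 8.29e-05 and 0.00616), the latter lost without replicate 2 or 3 of S434A with H89 (0.40 and 0.41). Its rise of 0.47 in S434A against WT was lost without replicate 2 of S434A (0.36, edgeR adjusted p = 0.0521) and with trends removed (0.26, edgeR adjusted p = 0.105). VCP, the cytosolic ATPase that pulls substrates out of the membrane, was at 299.7, 313 and 313 CPM in WT, 439, 413 and 396 in H89-treated WT, 578, 487 and 391 in S434A and 402, 382 and 393 in S434A with H89. WT was lowest. VCP rose by 0.65 in S434A against WT (edgeR adjusted p = 4.40e-04) and by 0.43 with H89 in WT (edgeR adjusted p = 0.00524), the latter lost at 0.23 to 0.32 without any 1 library of WT with H89 or S434A with H89 or replicate 2 of S434A. Its fall of 0.31 with H89 in S434A was lost without any 1 WT library without H89 (-0.31) or replicate 1 of S434A (-0.16), with trends removed (-0.13, edgeR adjusted p = 0.134), and with limma-voom with a weight per group (adjusted p = 0.0527).

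HERPUD1, a stress-induced partner of HRD1, was at 90.5, 90.8 and 92.9 CPM in WT and at 92.9, 96.0 and 92.1 CPM in WT with H89. It was at 151, 135 and 102 CPM in S434A and at 93.4, 92.9 and 93.6 CPM in S434A with H89. The S434A libraries without H89 were above all others. It rose by 0.50 in S434A against WT (SE 0.11, edgeR adjusted p = 0.00238) and fell by 0.47 with H89 in S434A (SE 0.11, edgeR adjusted p = 0.00595), and these were 0.58 and -0.55 with trends removed. OS9, a lectin that hands glycoproteins to HRD1, was at 280.1, 282 and 279.6 CPM in WT and at 258, 251 and 237.5 CPM in WT with H89. It fell by 0.34 with H89 in S434A (edgeR adjusted p = 0.00851) and did not pass with H89 in WT at -0.17 (edgeR adjusted p = 0.0903), where it passed in 9 of the 12 left-out fits, at -0.17 to -0.36. With trends removed it fell by 0.18 in S434A against WT, 0.29 with H89 in WT and 0.13 with H89 in S434A.

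GC content and gene length moved with several of these results. Over the 14279 genes tested that had both values, GC content and length together explained 25% of the spread across genes in the log2 change with H89 in WT, 38.3% of S434A against WT, 55.8% of H89 in S434A, 3.49% of S434A against WT with H89 and 37.3% of the difference of H89 effects. Within the S434A libraries without H89, the log2 ratio of replicate 1 to replicate 3 rose with the GC content of the 31 genes (Spearman rho 0.783, a description across genes of 2 libraries). Of the 11 genes with a GC content under 46%, 9 were lower in replicate 1, and of the other 20, 16 were higher in it. HSP90B1, with a GC content of 42.4%, was at 143 CPM in replicate 1 and 668 CPM in replicate 3. P4HB, with 57.9%, was at 2671 and 1893 CPM. The labels give these libraries the same group.

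**Figure D4:**
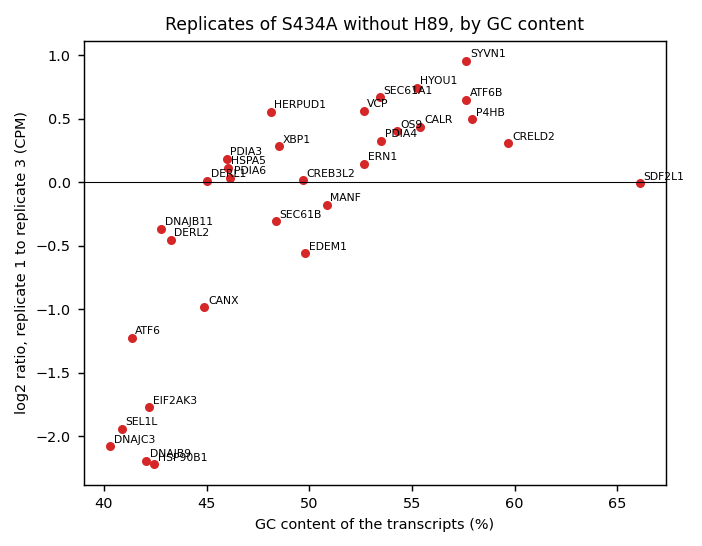
Log2 ratio of CPM in replicate 1 to replicate 3 of S434A without H89 (vertical axis) against the GC content of the transcripts in percent (horizontal axis) for 31 genes. Genes below 43% GC lie at -1.2 or lower apart from DNAJB11 (-0.37), and genes above 52% GC lie at or above -0.01.

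Other genes of the same pathways were counted from lists made by function. Values of single genes in these lists are from counts as deposited. Over all genes the change with H89 in WT rose with gene length (Spearman rho 0.463). Removal of the trends can change such values much. With H89 in WT it moved SEC61B from -0.94 to -0.25 and DERL2 from -1.30 to -1.76. Counts from the fit as deposited stand against the shares of all genes that rose and fell. These were 29 and 29.3% in S434A against WT, 38.8 and 30.9% with H89 in WT, and 29.3 and 22.7% with H89 in S434A. Counts with trends removed stand against 30.4 and 29.9%, 38.6 and 35.3%, and 20.8 and 22.9% in the same order. Among 16 genes of translocation and signal peptide cleavage, 1 rose and 11 fell in S434A against WT, and 3 rose and 11 fell with trends removed. H89 raised 3 and lowered 8 in WT, or 2 and 13 with trends removed, and raised 4 and lowered 6 in S434A, or 0 and 10 with trends removed. The median log2 change in S434A against WT was -0.77, or -0.38 with trends removed, against -0.04 over all genes and 0.08 over the 31 genes described above. SEC11C and SEC11A, catalytic subunits of signal peptidase, fell by 1.45 and 1.54, and the translocon-associated SSR4 by 0.81 (edgeR adjusted p = 5.28e-07, 1.52e-06 and 6.80e-07). With H89 in WT SSR4 fell by 1.71, SEC11C by 1.84 and SRPRB by 1.13.

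Among 22 other chaperones and oxidoreductases, 4 rose and 10 fell in S434A against WT (3 and 10 with trends removed), H89 raised 6 and lowered 8 in WT (3 and 9), and raised 7 and lowered 9 in S434A (5 and 11). PRDX4, an ER peroxidase, fell by 1.05 in S434A against WT and by 1.84 with H89 in WT, and PPIB, a prolyl isomerase, by 0.73 and 1.47. SDF2, the constitutive relative of SDF2L1, fell by 0.84 and 1.27. Among 16 genes of glycan processing and oligosaccharyl transfer, the counts were 7 and 4 (6 and 5 with trends removed), 8 and 4 (7 and 6) and 2 and 6 (1 and 6) in the same order. RPN2 rose by 0.73 and 0.70 while DAD1 fell by 1.14 and 1.73, 2 subunits of the same oligosaccharyl transferase.

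Among 21 further ERAD genes, 6 rose and 12 fell in S434A against WT, with a median log2 change of -0.41. With trends removed 7 rose and 9 fell, and the median was 0.05. With H89 the counts were 6 and 9 in WT (7 and 9 with trends removed) and 9 and 7 in S434A (5 and 10), so in S434A the larger count changed sides. The ligase RNF5 fell by 0.84 in S434A against WT and by 1.58 with H89 in WT, SELENOS by 1.03 and 1.53 and the conjugating enzyme UBE2G2 by 0.67 and 0.95. Among 9 genes of sensor processing and the CREB3 family, the counts were 3 and 4 in S434A against WT (3 and 4 with trends removed), 5 and 4 with H89 in WT (4 and 4) and 2 and 3 with H89 in S434A (3 and 5). CREB3 fell by 0.84 and 1.53, and RTCB, the ligase that joins XBP1 mRNA after IRE1 cleavage, by 0.68 and 1.05. Among 11 genes of the integrated stress response, which PERK feeds, the counts were 6 and 4 (6 and 4 with trends removed), 5 and 4 (4 and 4) and 1 and 3 (1 and 4) in the same order. Their median log2 change was 0.55 in S434A against WT, 0.14 with H89 in WT and -0.15 with H89 in S434A. With trends removed the medians were 0.21, 0.15 and -0.04. The falls named next thus do not stand for this list. ATF4, the main transcription factor of this response, fell by 0.95 with H89 in WT (edgeR adjusted p = 1.63e-06). EIF2S1, which encodes eIF2α, fell by 1.57 in S434A against WT and by 1.52 with H89 in WT. None of the genes in these lists passed between the genotypes under H89, where ATF4 was at 0.21 (edgeR adjusted p = 1) and RPN2 at -0.08 (edgeR adjusted p = 1).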

How the data were processed

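Whole-number counts of read pairs per gene were deposited by the authors, made with featureCounts 2.0.1 over exons, per the file headers, which name an hg19 annotation and set no strand, multimapping or overlap option. Bowtie 0.12.2 and hg19 are named per the submitters' processing notes. Trimming, library kit and strandedness are not stated there, so overlapping and antisense genes cannot be told apart. Exon lengths are deposited in the same table, per the file headers. The 12 libraries (totals of 17562754 to 37187794) were fitted together by robust quasi-likelihood in edgeR (version 4.0.16 under R 4.3.3) with no block, after the filterByExpr filter by group (minimum count 10) and TMM scaling. The Benjamini-Hochberg adjustment covered the 14435 genes kept. P-values measure the spread between the deposited replicates. Data were simulated with the spread of each group. In comparisons that include S434A without H89, this fit then called more unchanged genes than limma-voom with a weight per group. Counts from both are therefore given there, while values of single genes are from edgeR unless limma-voom is named. For the genes described, each edgeR call there that limma-voom did not share is named. CPM values are TMM-scaled.

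The fits were repeated with scaling by RLE or by the upper quartile, in DESeq2 1.42.0, by limma-voom (limma 3.58.1) with a weight per group, with no filter, with 1 CPM required in 3 libraries, on the compared groups alone, with a replicate block, with an offset for the dependence of each library on GC content and length (splines with 5 degrees of freedom, with their product), the same with the block, and each library left out. The same offset without replicate 1 of S434A without H89 was chosen after seeing the data. GC content came from GENCODE transcripts of another build through the identifier. Promoter sequences are from RefSeq (GRCh38.p14). The genes, the lists and the tests were chosen with earlier results of these data known. All 32 genes could be named, and of each other list up to 3 genes with the smallest p among those that passed in a comparison, or the 2 with the highest mean where none did. In the lists, FKBP2, CREB3L1 and CHAC1 were not tested because they did not pass the filter.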

Additional observations from a re-analysis of the deposited data

Results flagged for a closer look

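The effect of H89 on the log2 scale differed between S434A and WT cells, by the edgeR interaction term, for 18 of the 31 genes tested. The values below are the effect in S434A minus the effect in WT. With the genotypes close to each other under H89, they largely repeat S434A against WT without H89 with the sign turned. Among the sensors and transcription factors the differences were -0.60 for ERN1, -1.56 for ATF6B and -1.33 for CREB3L2. In the BiP machine they were -0.53 for HSPA5, -1.18 for HYOU1, 0.57 for DNAJB11, 0.78 for SDF2L1 and 0.98 for MANF. Among the isomerases they were -0.33 for PDIA3, 0.30 for PDIA6, -0.44 for P4HB and 0.36 for CRELD2. The channel subunits were at -0.96 for SEC61A1 and 0.88 for SEC61B, and the ERAD genes at -0.51 for HERPUD1, -1.95 for SYVN1, 1.25 for DERL2 and -0.74 for VCP. With GC and length trends removed, ERN1 (0.05), DNAJB11 (0.05), PDIA6 (-0.09) and P4HB (0.09) did not pass, and the other 14 kept their direction and their call. Limma-voom with a weight per group did not call CRELD2 (adjusted p = 0.0659). The calls for CRELD2, P4HB and HERPUD1 were lost without any 1 of 6, 6 and 3 libraries.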

How the results depend on the processing

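Of the genes called, 19 of 24 with H89 in WT, 13 of 20 in S434A against WT, 9 of 22 with H89 in S434A and 11 of 18 for the difference kept direction and call in every setting run. The same was not counted over all genes, so these counts are not read as a trait of this list. Leaving out 1 library gave 23 to 28, 19 to 25, 19 to 28 and 16 to 24 calls among these genes and 9018 to 11488, 7485 to 9427, 5800 to 9677 and 6123 to 8256 among all genes. Between the genotypes with H89 it gave 0 calls each time and 7 to 17 genes without overlap (17.2 to 38% of all genes), and DESeq2 called 2 and limma-voom 3 of all genes. Fitted on the S434A groups alone, the H89 effect passed for 10 genes of the list and 2743 of all genes, and HERPUD1 with H89 in WT, fitted on the WT groups alone, was -0.11. Of called genes, RLE factors moved the share that rose with H89 in WT from 55.6 to 48.6%. The groups compared alone moved it from 49.7 to 64.5% in S434A against WT. Removing GC and length trends reversed ERN1 (-0.18), XBP1 (0.23), PDIA6 (0.0505), P4HB (-0.14) and OS9 (-0.18) in S434A against WT, ATF6 (-0.42) with H89 in WT, ATF6 (-0.51), ATF6B (0.24) and DNAJB11 (-0.64) with H89 in S434A, and ERN1 (0.0468), DNAJC3 (-0.56), PDIA6 (-0.0861), P4HB (0.0949) and OS9 (0.16) in the difference. With the replicate block added to that removal the reversals were -0.18, 0.23, 0.0462, -0.14, -0.18; -0.42; -0.50, 0.25, -0.62; and 0.0446, -0.55, -0.0828 and 0.0949, in the same order and without OS9. Without replicate 1 of S434A without H89, chosen after seeing the data, removal reversed ERN1 (-0.17), XBP1 (0.15), HSP90B1 (0.42), P4HB (-0.15) and OS9 (-0.20) in S434A against WT, ATF6 (-0.33), ATF6B (0.27), DNAJB11 (-0.37), CANX (-0.00560) and SYVN1 (0.26) with H89 in S434A, and ERN1 (0.0323), HSP90B1 (-0.52), DNAJC3 (-0.62), P4HB (0.10) and OS9 (0.17) in the difference. A reversal here is a change of sign. The reversed values of ERN1, PDIA6 and CANX, and of P4HB in the difference, did not pass, and the others did. The cause of the reversals was not tested. Same-numbered samples did not pair: in no 2 groups did all 3 numbers correlate above 0.1 (lowest -0.153 to 0.0481), and at most 2 of 3 samples correlated best with their own number. The replicate block gave 23, 20, 22, 0 and 18 calls among these genes for H89 in WT, S434A against WT, H89 in S434A, S434A against WT with H89 and the difference. These are compared only with the fit without a block and are not set against all genes.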
